A study of Mus musculus with 9 samples.

Results

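The genes described here are 44 cell cycle and DNA replication genes of 9 mouse liver tumours. They were taken by symbol from the deposited table of 32761 genes, and each of the 44 symbols was found there on 1 row. All 44 had a mean of at least 0.5 FPKM over the 9 libraries and so entered the tests, which were run on 15353 genes. FPKM is the number of sequenced fragments assigned to a gene, scaled by the length of its transcripts and by the library's total, so it can be compared between genes.

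A dividing cell passes through G1, copies its DNA in S phase, and separates the copies in mitosis. Cyclins D and E with their kinases release the E2F transcription factors in late G1, and E2F switches on the genes that license and fire replication origins and supply deoxynucleotides. Cyclin A and later cyclin B drive Cdk1 into mitosis, where the Aurora and Polo kinases, the kinetochore and the spindle act, until the anaphase-promoting complex destroys the cyclins. Many of these genes, though not all, are transcribed mostly in their own window of the cycle. Their mRNA levels in a tumour are commonly read as signs of how many cells are dividing and in which phase.

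The mice carried tumours in the liver grown from Hepa1-6-luc, a mouse hepatoma cell line marked with luciferase. The study had 6 treatment groups and 3 of them were sequenced, each with 3 tumours collected on day 14. The first group is labelled Control, with no agent named. Mice of the Lenvatinib+anti-PD1 group received free lenvatinib, an inhibitor of the VEGF and FGF receptor kinases, every 3 days, and an antibody against PD1, an inhibitory receptor of T cells, at 50 µg per injection every 4 days. The Co+Len@OVA+anti-PD1 group received the same antibody together with a drug-loaded nanocluster at 2 mg/mL in place of the free drug. What Co stands for is not explained in the labels, which also give no strain or age of the mice. No sequenced group received lenvatinib, the antibody or the carrier alone, so the parts of each treatment cannot be told apart. Whole pieces of tumour were used, so a change in the number of dividing cells and a change in mRNA per cell cannot be told apart for any gene below.

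The libraries limit what the tests can show. In Co+Len@OVA+anti-PD1, 278 genes were more than 4-fold apart in libraries 1 and 2, and for 97.5% of them library 3 lay between these. Control had 350 such genes with a share of 94.9%, and Lenvatinib+anti-PD1 had 284 with 97.5%. Over all tested genes, library 3 lay between the others for 65.5% in Co+Len@OVA+anti-PD1, 45.4% in Lenvatinib+anti-PD1 and 66.7% in Control. If library 3 of a group is not independent of libraries 1 and 2, p-values from all 9 libraries are too small, and for that reason values from libraries 1 and 2 alone stand beside the counts. Column totals ranged from 3.32e+05 to 3.73e+05 FPKM, read depth is unknown because fragments could not be recovered from the values, and nothing in the labels beyond n = 3 per group says that the libraries came from separate animals. Alpha-fetoprotein (Afp), a marker of hepatoma and fetal liver cells, averaged 237 ± 3.90 FPKM in Co+Len@OVA+anti-PD1, 368 ± 25.0 in Lenvatinib+anti-PD1 and 404 ± 35.2 in Control (SD, n = 3).

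**Figure D1:**
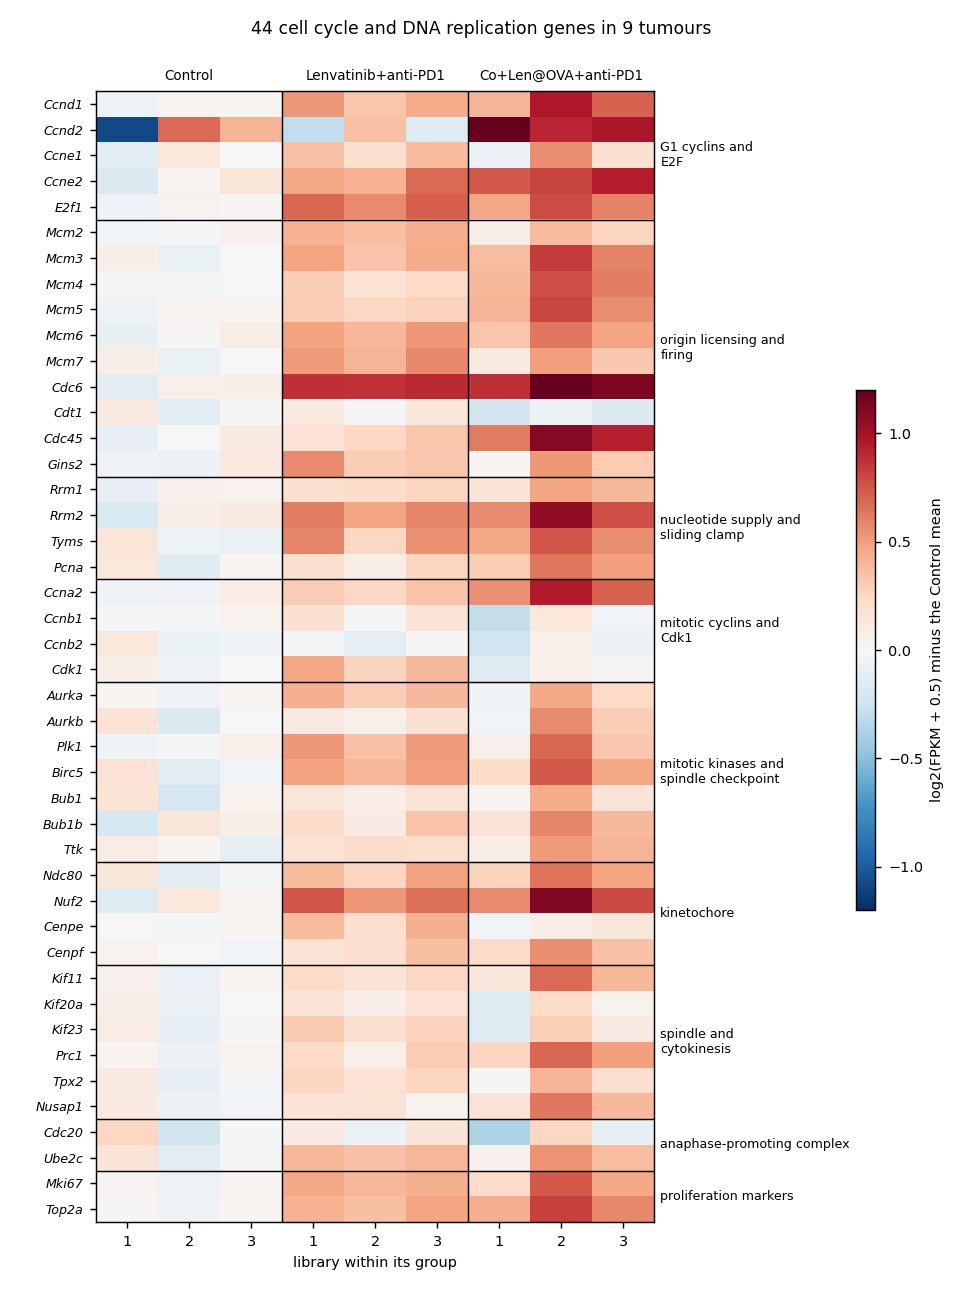
Each row is 1 of the 44 genes, ordered by role, and each column is 1 library. Colour gives log2(FPKM + 0.5) minus the mean of the Control libraries, red above and blue below it, and the colour scale ends at 1.2 on either side. The Co+Len@OVA+anti-PD1 columns are unequal, with library 2 the reddest for most genes, while the rows of the mitotic cyclins Ccnb1 and Ccnb2 are pale.

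Cell cycle and replication genes were higher in both treated groups than in Control. In Co+Len@OVA+anti-PD1 tumours 24 of the 44 rose and 0 fell, where 20.9% of all tested genes rose and 12.7% fell. The share of the members that rose was 54.5%. Their median log2 fold change was 0.39, against 0.13 over all tested genes, and single values ran from -0.15 for Cdt1 to 1.10 for Cdc6. Without Benjamini-Hochberg adjustment, 30 members (68.2%) were higher and 0 lower at p under 0.05 by limma. The background was 30.3% of all tested genes higher and 16.4% lower. For 28 members (63.6%) every Co+Len@OVA+anti-PD1 library lay above every Control library, which was the case for 32.4% of all tested genes.

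In Lenvatinib+anti-PD1 tumours 18 of the 44 genes rose (40.9%) and 0 fell, where 13.8% of all tested genes rose and 9.87% fell. At an unadjusted p under 0.05 the counts were 25 higher (56.8%) and 0 lower, against 22.6% and 15.7% of all tested genes. The median log2 fold change of the members was 0.30, against 0.048 over all tested genes. Single values ran from -0.037 for Ccnb2 to 0.88 for Cdc6. Here 34 members (77.3%) had every treated library above every Control library, where the background was 26.1%. Both comparisons use the same 3 Control libraries, so they are not independent of each other.

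Between the treatments few of these genes passed the test. Cdc45, Ccna2, Mcm4 and Mcm5 were higher in Co+Len@OVA+anti-PD1 than in Lenvatinib+anti-PD1 (4 of 44, or 9.09%), and Cdk1 and Cenpe were lower (2 of 44, or 4.55%). The background was 17.3% of all tested genes higher and 12% lower, so both shares of the members lie under it. By library values, 7 members (15.9%) lay above without overlap and 3 (6.82%) below, against 34.3% and 20.4% of all tested genes. The median log2 fold change was 0.10 for the members and 0.074 for all tested genes.

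Several counts depend on single libraries or on the scaling. From libraries 1 and 2 alone, with 3 residual degrees of freedom, 0 members passed in any comparison, where 0.111% and 0.215% of all tested genes were called higher and 0.41% and 0.13% lower than in Control, and 0.443% higher and 1.93% lower between the treatments. At an unadjusted p under 0.05 those libraries gave 17 members higher in Co+Len@OVA+anti-PD1 than in Control (38.6%, background 13.6%) and 10 higher in Lenvatinib+anti-PD1 (22.7%, background 9.91%), with 0 lower in either (background 8.4% and 6.77%). Between the treatments they gave 2 higher (4.55%, background 10.4%) and 1 lower (2.27%, background 8.28%). The medians against Control were 0.41 and 0.30. Leaving out library 3 of Co+Len@OVA+anti-PD1 gave 15 rises against Control in place of 24. For Lenvatinib+anti-PD1 against Control the 18 rises became 5 without its library 3, 8 without its library 1, 9 without Control library 3, 10 without Control library 2 and 11 without Co+Len@OVA+anti-PD1 library 3. Between the treatments the 4 higher members became 8 without Co+Len@OVA+anti-PD1 library 1, 7 without Control library 1, and 2 without Co+Len@OVA+anti-PD1 library 3 or any 1 library of Lenvatinib+anti-PD1. Scaling by the median of ratios instead of the deposited FPKM moved the median of all genes in Co+Len@OVA+anti-PD1 against Control from 0.13 to 0.00060, and turned the split of all calls from 3209 higher and 1946 lower to 2060 higher and 2817 lower. Under it 13 of the 24 remained higher there, namely Ccna2, Ccnd1, Ccne2, Cdc45, Cdc6, E2f1, Mcm3, Mcm4, Mcm5, Mcm6, Nuf2, Rrm2 and Top2a. In Lenvatinib+anti-PD1 9 of the 18 remained, namely Ccne2, Cdc6, E2f1, Mcm2, Mcm6, Mcm7, Nuf2, Rrm2 and Top2a, and the members' median stayed 0.25 above that of all genes in both comparisons. Every gene called in the 9-library tests kept its sign in all 20 alternatives.

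**Figure D2:**
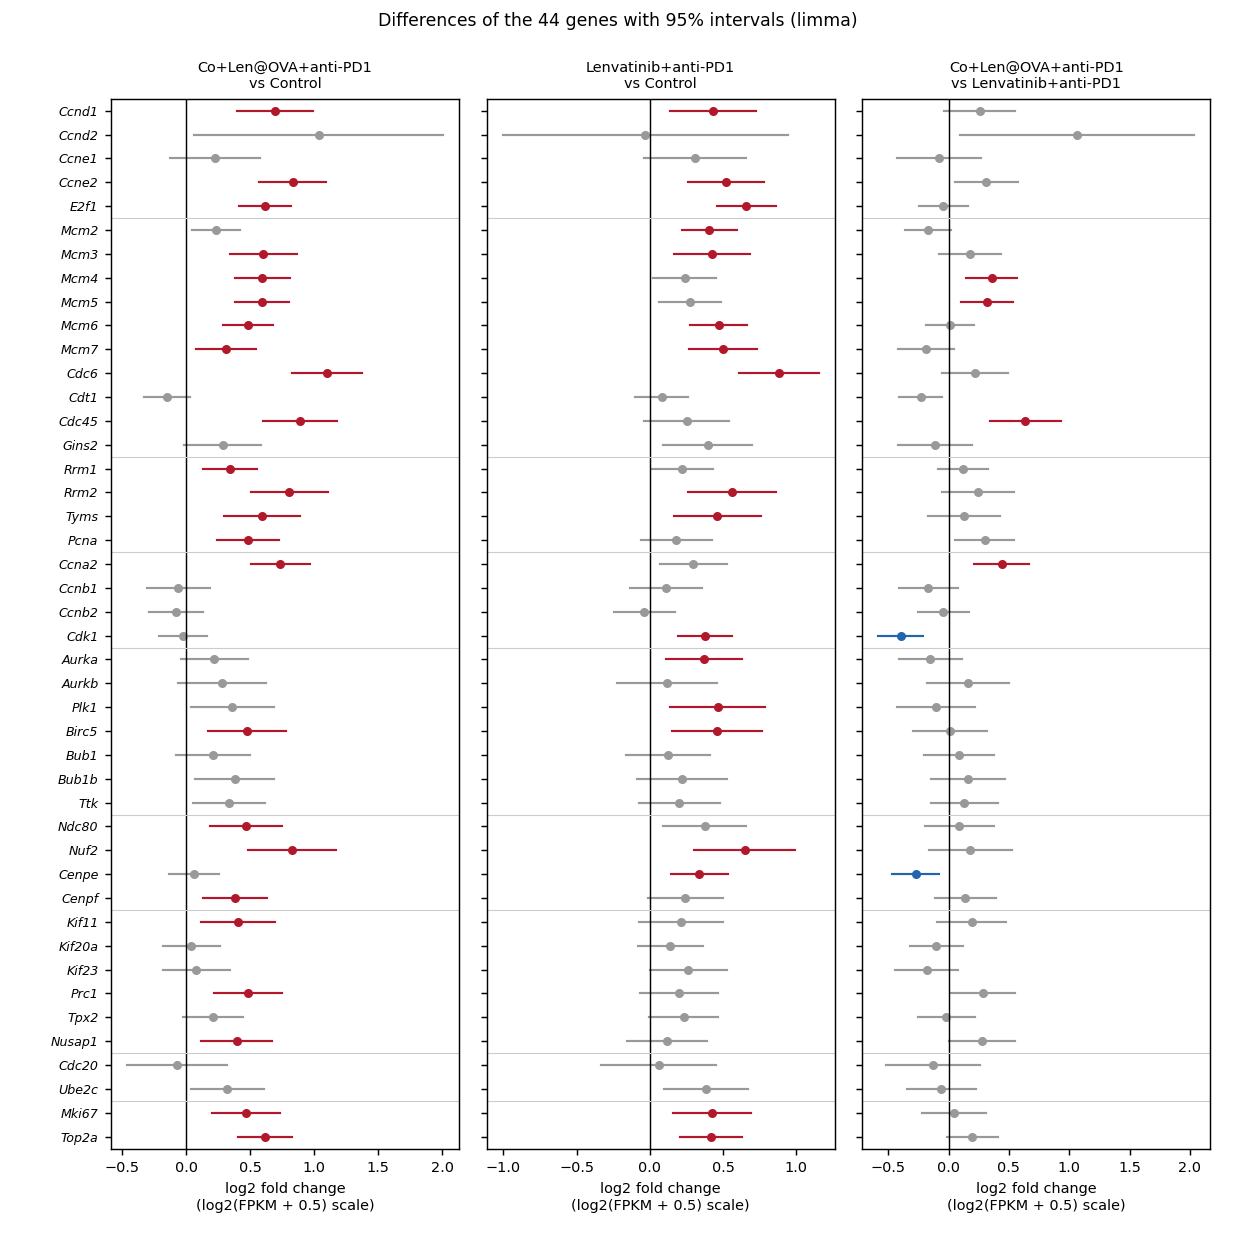
Points are log2 fold changes of the 44 genes on the log2(FPKM + 0.5) scale with 95% intervals from limma, in 3 panels for the 3 comparisons. Red points are higher and blue points lower at an adjusted p under 0.05, and grey points did not pass. Against Control nearly all points lie right of 0, while between the treatments they lie on both sides.

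The promoters of 6 of these genes are shown because they hold the motifs by which replication genes and mitotic genes are commonly told apart, and because the 6 genes differ in the results below. Sequences are from RefSeq on the GRCm38.p6 build, which held a promoter for 35 of the 44 genes. Each line gives the 150 bases that end just before the transcription start, 5′ to 3′ on the gene's strand, with motif matches in capitals. The positions are chr11:98908001-98908150 on the plus strand for Cdc6, chr8:75109359-75109508 plus for Mcm5, chr1:128359706-128359855 minus for Mcm6, chr10:69352913-69353062 minus for Cdk1, chr9:70421555-70421704 minus for Ccnb2 and chr4:118437344-118437493 minus for Cdc20.
Cdc6: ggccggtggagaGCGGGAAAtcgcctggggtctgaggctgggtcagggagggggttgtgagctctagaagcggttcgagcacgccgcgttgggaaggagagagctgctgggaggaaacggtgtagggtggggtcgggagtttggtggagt
Mcm5: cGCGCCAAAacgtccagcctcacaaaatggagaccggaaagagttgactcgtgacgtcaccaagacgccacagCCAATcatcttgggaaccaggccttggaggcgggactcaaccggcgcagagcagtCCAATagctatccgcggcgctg
Mcm6: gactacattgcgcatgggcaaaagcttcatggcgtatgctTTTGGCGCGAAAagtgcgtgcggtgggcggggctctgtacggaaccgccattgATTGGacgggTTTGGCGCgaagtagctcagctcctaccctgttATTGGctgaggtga
Cdk1: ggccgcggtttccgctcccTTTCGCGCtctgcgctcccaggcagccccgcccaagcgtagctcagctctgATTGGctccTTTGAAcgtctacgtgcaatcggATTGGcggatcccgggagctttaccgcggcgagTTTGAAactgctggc
Ccnb2: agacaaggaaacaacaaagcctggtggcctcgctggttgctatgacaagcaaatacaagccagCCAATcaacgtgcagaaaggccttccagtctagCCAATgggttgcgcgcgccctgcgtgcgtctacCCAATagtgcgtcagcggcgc
Cdc20: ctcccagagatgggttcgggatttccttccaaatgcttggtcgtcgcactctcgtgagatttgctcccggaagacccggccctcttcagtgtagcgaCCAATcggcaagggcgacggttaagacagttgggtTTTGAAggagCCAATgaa

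Both strands of the 250 bases before the start were searched, and capitals mark only matches that lie wholly in the 150 bases printed. The letters searched were the CCAAT box (CCAAT), the cell cycle homology region or CHR (TTTGAA or TTCGAA), and the E2F site (TTTCCCGC, TTTGGCGC, TTTCGCGC or TTTGCCGC). No motif contains another, but E2F matches on opposite strands can overlap, as the first 2 of Mcm6 do. CCAAT was found in 74.3% of the 35 members (26 genes) and in 37.5% of the 27025 genes of the promoter table. A CHR was found in 34.3% (12 genes) against 19.6%, and an E2F site in 14.3% (5 genes) against 2.16%. Among the 14 members of the G1, licensing and nucleotide roles, 28.6% held an E2F site (4 genes) and 21.4% a CHR (3 genes). Cdc6, Mcm5 and Mcm6, shown above, are among these 4, so most genes of these roles had no E2F match. Of the other 21, with mitotic roles or as proliferation markers, 4.76% held an E2F site (1 gene) and 42.9% a CHR (9 genes). CCAAT was in 64.3% and 81.0% of these 2 sets. In the lines above, Cdc6 shows 1 E2F match and no other motif, Mcm5 and Mcm6 join E2F matches with CCAAT, Ccnb2 has 3 CCAAT boxes, Cdc20 has CCAAT and CHR, and Cdk1 holds all 3 kinds. Within the 250 bases searched, but not wholly in these lines, Ccnb2 also has a CHR, Mcm5 another E2F match and Cdk1 another CCAAT box. A match describes these letters only and does not show that a factor binds there.

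Among the 5 members with a G1 role, cyclin D1 (Ccnd1), which pairs with Cdk4 and Cdk6, was the most abundant. Its level in libraries 1, 2 and 3, the order used throughout, was 60.5, 64.5 and 64.4 FPKM in Control, 90.7, 79.8 and 86.0 in Lenvatinib+anti-PD1 and 83.8, 123 and 103 in Co+Len@OVA+anti-PD1. All treated libraries lay above all Control libraries. The log2 fold change was 0.69 (SE 0.13, adjusted p = 0.00565) for Co+Len@OVA+anti-PD1 and 0.43 (SE 0.13, adjusted p = 0.0424) for Lenvatinib+anti-PD1. The second of these calls was lost without any 1 of 7 libraries, with adjusted p of up to 0.119 without Lenvatinib+anti-PD1 library 3.

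Cyclin D2 (Ccnd2), a second partner of Cdk4, was a low transcript that varied widely. Control gave 0.470, 2.80 and 2.24 FPKM, Lenvatinib+anti-PD1 1.18, 2.13 and 1.35 and Co+Len@OVA+anti-PD1 4.24, 3.38 and 3.57. The Co+Len@OVA+anti-PD1 libraries were above all others, with a log2 fold change of 1.03 (SE 0.42) against Control, but the adjusted p was 0.0917, and 0.0379 without Control library 2. Against Lenvatinib+anti-PD1 the adjusted p was 0.0885, and without Control library 1, which holds the low value, it was 0.00311 in that comparison. Cyclin D2 is also made by activated lymphocytes, and the T cell list was higher in the same group (values below). The part of those cells in the Ccnd2 level was not tested.

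Of the E cyclins, which partner Cdk2 at the start of S phase, 1 of 2 passed. Cyclin E2 (Ccne2) rose in both treated groups, from 2.58, 3.05 and 3.34 FPKM in Control to 4.30, 4.13 and 5.07 in Lenvatinib+anti-PD1 (log2 fold change 0.52, adjusted p = 0.0139) and 5.29, 5.60 and 6.20 in Co+Len@OVA+anti-PD1 (0.83, adjusted p = 0.00165). The 3 groups did not overlap. Cyclin E1 (Ccne1) gave 7.19, 8.74 and 7.96 in Control, 10.2, 9.15 and 10.5 in Lenvatinib+anti-PD1 and 7.56, 11.9 and 9.05 in Co+Len@OVA+anti-PD1, and passed no test, with a 95% interval of -0.12 to 0.57 for the last group against Control. The call for Ccne2 in Lenvatinib+anti-PD1 was lost without library 3 of that group (adjusted p = 0.0567).

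E2f1, the activating transcription factor of the G1 to S step, rose in both groups. It stood at 8.59, 9.22 and 9.04 FPKM in Control, 14.7, 13.5 and 15.0 in Lenvatinib+anti-PD1 and 12.5, 15.8 and 13.8 in Co+Len@OVA+anti-PD1. The log2 fold changes were 0.66 (SE 0.088, adjusted p = 0.00193) and 0.61 (SE 0.088, adjusted p = 0.00204). Both calls held in every alternative except libraries 1 and 2 alone. The difference between the treatments was -0.044, with an interval of -0.25 to 0.16.

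The largest rise of a single member was in origin licensing, but that role as a whole did not have the largest rise. Against Control the licensing and firing genes had median log2 fold changes of 0.53 in Co+Len@OVA+anti-PD1 and 0.40 in Lenvatinib+anti-PD1. The G1 members had medians of 0.69 and 0.43. Cdc6, the loader that places the Mcm2-7 helicase on origins and whose promoter is shown above, was the member with the largest rise in both groups. Control had 1.62, 1.90 and 1.92 FPKM, Lenvatinib+anti-PD1 3.75, 3.72 and 3.78 and Co+Len@OVA+anti-PD1 3.73, 5.21 and 4.51. The Control libraries were the 3 lowest of the 9. The level was 2.14 times that of Control in Co+Len@OVA+anti-PD1 (log2 fold change 1.10, SE 0.12, adjusted p = 0.000607) and 1.84 times in Lenvatinib+anti-PD1 (0.88, SE 0.12, adjusted p = 0.00194) on the log2(FPKM + 0.5) scale, which understates changes of low genes.

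Its partner in loading, Cdt1, passed no test. Cdt1 gave 22.6, 19.3 and 21.3 FPKM in Control, 22.7, 20.8 and 23.2 in Lenvatinib+anti-PD1 and 17.9, 20.02 and 18.7 in Co+Len@OVA+anti-PD1. It had the lowest log2 fold change of the 44 in Co+Len@OVA+anti-PD1 against Control, -0.15 (interval -0.33 to 0.027, adjusted p = 0.160). Between the treatments it was -0.23 with an adjusted p of 0.0563, and it passed without Control library 1 (0.0295) or library 2 (0.0384).

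The 6 subunits of the replicative helicase, Mcm2 to Mcm7, were above Control in both groups by their means, but not evenly. Mcm3, Mcm4, Mcm5, Mcm6 and Mcm7 rose in Co+Len@OVA+anti-PD1, with log2 fold changes of 0.31 (Mcm7) to 0.60 (Mcm3). Mcm2, Mcm3, Mcm6 and Mcm7 rose in Lenvatinib+anti-PD1, with 0.41 (Mcm2) to 0.50 (Mcm7). Mcm5 shows the first pattern, with 13.9, 14.6 and 14.6 FPKM in Control, 17.8, 17.1 and 17.5 in Lenvatinib+anti-PD1 and 19.2, 25.4 and 21.4 in Co+Len@OVA+anti-PD1, the 3 groups in rising order and without overlap. Its log2 fold change between the treatments was 0.32 (SE 0.093, adjusted p = 0.0371). Mcm2 shows the second, with 10.5, 10.6 and 11.1 FPKM in Control, 14.5, 13.9 and 14.7 in Lenvatinib+anti-PD1 and 11.3, 14.1 and 12.99 in Co+Len@OVA+anti-PD1. There Lenvatinib+anti-PD1 was the higher group against Control (0.41, adjusted p = 0.0101), and Co+Len@OVA+anti-PD1 did not pass (0.23, adjusted p = 0.0569).

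Mcm4 was 14.0, 13.7 and 13.9 FPKM in Control, 17.1, 15.7 and 16.4 in Lenvatinib+anti-PD1 and 18.3, 24.05 and 21.5 in Co+Len@OVA+anti-PD1, and was higher in the last group than in the second (0.36, adjusted p = 0.0242). The calls of Mcm4 and Mcm5 between the treatments were lost under median-of-ratios scaling (adjusted p = 0.120 and 0.152) and without any 1 library of Lenvatinib+anti-PD1 (adjusted p from 0.0509 to 0.0990) or library 3 of Co+Len@OVA+anti-PD1 (0.0822 and 0.0892). The call of Mcm5 was lost as well without Co+Len@OVA+anti-PD1 library 2 (0.0519) or Control library 3 (0.0611). Mcm7 in Co+Len@OVA+anti-PD1, at an adjusted p of 0.0478, was lost without any 1 of 8 libraries (0.0551 to 0.125). Mcm3 in Lenvatinib+anti-PD1 was lost without any 1 of 6 (0.0545 to 0.0952), while Mcm2, Mcm6 and Mcm7 there held in every alternative except libraries 1 and 2 alone.

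Cdc45, which joins the helicase when an origin fires, had the smallest adjusted p of the 44 between the treatments. Control had 2.63, 2.86 and 3.12 FPKM, Lenvatinib+anti-PD1 3.29, 3.49 and 3.74 and Co+Len@OVA+anti-PD1 4.70, 6.72 and 5.92. The log2 fold change was 0.89 against Control (SE 0.13, adjusted p = 0.00200) and 0.64 against Lenvatinib+anti-PD1 (SE 0.13, adjusted p = 0.00821). Both calls held in every alternative except libraries 1 and 2 alone. Lenvatinib+anti-PD1 itself did not pass against Control (0.25, adjusted p = 0.188). Gins2, a subunit of the GINS complex that binds beside Cdc45, passed no test.

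**Figure D3:**
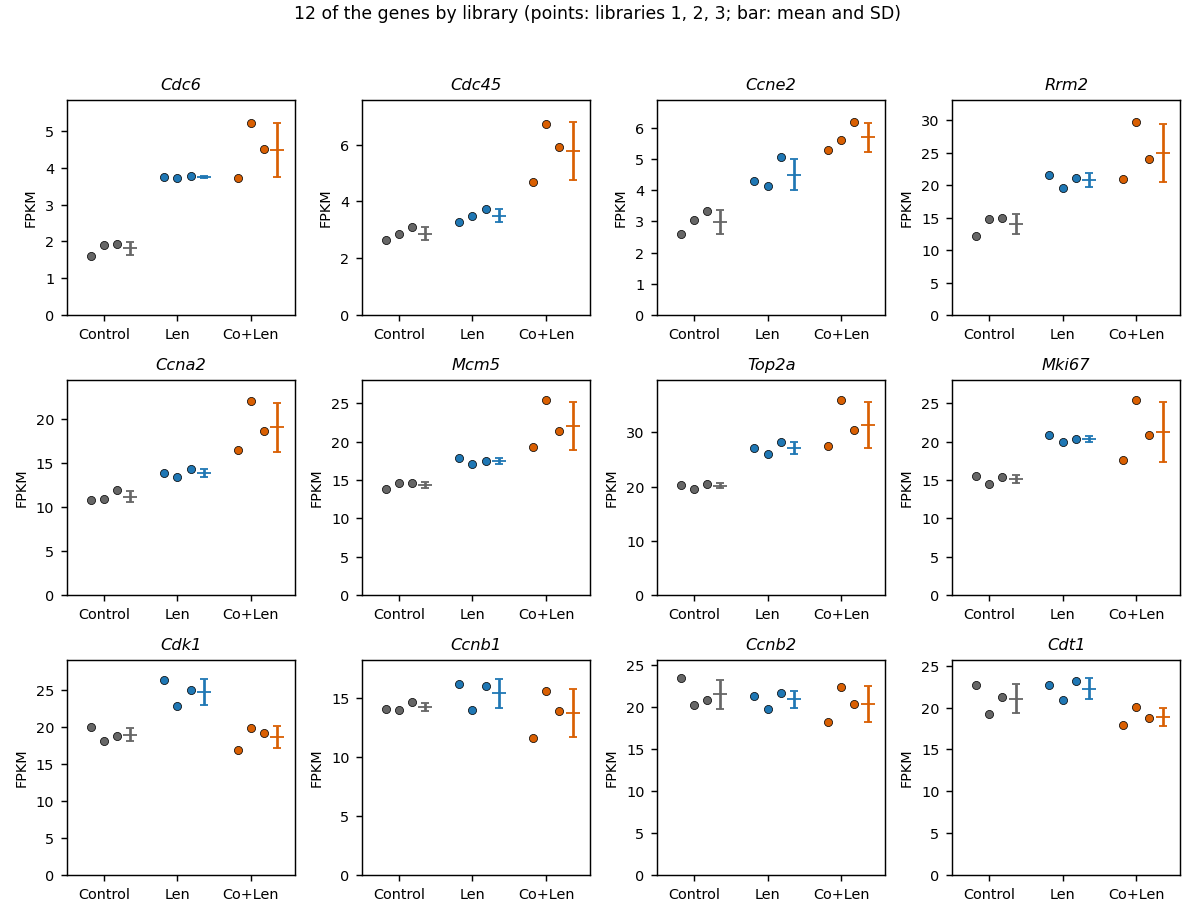
FPKM of 12 of the genes in each library (points, libraries 1, 2 and 3 from left to right) with the group mean and SD; Len is Lenvatinib+anti-PD1 and Co+Len is Co+Len@OVA+anti-PD1, and each vertical axis starts at 0. Cdc6, Ccne2 and Rrm2 are above Control in both treated groups, Cdc45, Ccna2 and Mcm5 are highest in Co+Len, and Cdk1 is highest in Len.

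Genes that supply deoxynucleotides all rose in Co+Len@OVA+anti-PD1. Rrm2, the S phase subunit of ribonucleotide reductase, went from 12.2, 14.8 and 15.0 FPKM in Control to 21.6, 19.6 and 21.1 in Lenvatinib+anti-PD1 and 20.9, 29.7 and 24.1 in Co+Len@OVA+anti-PD1. Its log2 fold changes were 0.56 (SE 0.13, adjusted p = 0.0184) and 0.80 (SE 0.13, adjusted p = 0.00343). Thymidylate synthase (Tyms), which makes dTMP, gave 2.72, 2.28 and 2.25 FPKM in Control, 3.88, 2.95 and 3.76 in Lenvatinib+anti-PD1 and 3.48, 4.41 and 3.78 in Co+Len@OVA+anti-PD1. It rose in both (0.46, adjusted p = 0.0351, and 0.59, adjusted p = 0.0111).

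The sliding clamp Pcna, which tethers DNA polymerases, was 60.7, 50.3 and 56.4 FPKM in Control, 63.9, 59.0 and 66.7 in Lenvatinib+anti-PD1 and 68.6, 87.3 and 78.6 in Co+Len@OVA+anti-PD1. It rose in the last group (0.48, adjusted p = 0.0115) and did not pass in the second, whose libraries overlap those of Control (0.18, adjusted p = 0.252). Rrm1, the large subunit of ribonucleotide reductase, had the same calls as Pcna, with 0.34 (adjusted p = 0.0229) and 0.22 (adjusted p = 0.112). Unlike for Pcna, its Lenvatinib+anti-PD1 libraries (9.86, 10.1 and 10.4 FPKM) all lay above those of Control (7.98, 8.94 and 8.88). Median-of-ratios scaling ended the calls of Rrm1, Tyms and Pcna in Co+Len@OVA+anti-PD1 (adjusted p = 0.126, 0.0523 and 0.0990). The call of Rrm1 was also lost without library 2 (0.0608) or 3 (0.0833) of that group or Control library 3 (0.0509). In Lenvatinib+anti-PD1 the calls of Rrm2 and Tyms were lost without its library 1 (0.0577 and 0.109) or library 3 (0.0660 and 0.123), and that of Tyms also without Control library 2 or 3 or Co+Len@OVA+anti-PD1 library 3 (0.0633 to 0.112).

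The cyclins of mitosis and their kinase gave 3 different results. Cyclin A2 (Ccna2), which acts from S phase on, was 10.8, 10.8 and 11.9 FPKM in Control, 13.8, 13.4 and 14.3 in Lenvatinib+anti-PD1 and 16.5, 22 and 18.6 in Co+Len@OVA+anti-PD1, and no group overlapped another. It rose in Co+Len@OVA+anti-PD1 (0.73, SE 0.10, adjusted p = 0.00166) and was also above Lenvatinib+anti-PD1 there (0.44, adjusted p = 0.0145). The second of these calls was lost under median-of-ratios scaling (adjusted p = 0.0516). Lenvatinib+anti-PD1 against Control gave 0.30 with an adjusted p of 0.0665.

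Cdk1, the kinase that starts mitosis, went the other way between the treatments. Its values were 19.97, 18.2 and 18.9 FPKM in Control, 26.4, 22.9 and 25.0 in Lenvatinib+anti-PD1 and 16.9, 19.8 and 19.2 in Co+Len@OVA+anti-PD1. It rose in Lenvatinib+anti-PD1 (0.37, SE 0.080, adjusted p = 0.0133) and was lower in Co+Len@OVA+anti-PD1 than there (-0.40, SE 0.080, adjusted p = 0.00860). Against Control the Co+Len@OVA+anti-PD1 libraries overlapped, with -0.026 and an interval of -0.21 to 0.16. The call between the treatments held in every alternative except libraries 1 and 2 alone, while the rise in Lenvatinib+anti-PD1 was lost without its library 3 (adjusted p = 0.0529) and under median-of-ratios scaling (0.0659).

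The B cyclins, which complete the mitotic kinase, passed no test. Ccnb1 was 14.0, 14.0 and 14.6 FPKM in Control, 16.2, 14.0 and 16.0 in Lenvatinib+anti-PD1 and 11.6, 15.6 and 13.9 in Co+Len@OVA+anti-PD1. Ccnb2 was 23.5, 20.2 and 20.9 FPKM in Control, 21.3, 19.8 and 21.7 in Lenvatinib+anti-PD1 and 18.2, 22.5 and 20.4 in Co+Len@OVA+anti-PD1. Their log2 fold changes in Co+Len@OVA+anti-PD1 against Control were -0.062 (interval -0.31 to 0.18) and -0.082 (interval -0.29 to 0.13), so a change of the size of Ccna2 lies outside both intervals.

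Ratios between 2 genes of 1 library do not depend on how the library is scaled. The ratios given here were chosen after the values had been seen and are a description. Ccna2 over Ccnb1 was 1.33 to 1.42 in Co+Len@OVA+anti-PD1, 0.856 to 0.956 in Lenvatinib+anti-PD1 and 0.768 to 0.814 in Control. Ccna2 over Cdk1 was 0.965 to 1.11 in Co+Len@OVA+anti-PD1, where the other groups ran from 0.524 to 0.582 and from 0.539 to 0.630. In both ratios each Co+Len@OVA+anti-PD1 library stood clear of all others, library 1 included, which had low values for most members. Cdc6 over Cdt1 was 0.0714 to 0.0988 in Control, 0.163 to 0.179 in Lenvatinib+anti-PD1 and 0.208 to 0.260 in Co+Len@OVA+anti-PD1. Mcm4 over Mcm2 was 1.62 to 1.71 in Co+Len@OVA+anti-PD1, 1.12 to 1.17 in Lenvatinib+anti-PD1 and 1.25 to 1.33 in Control, while both proteins belong to 1 complex.

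**Figure D4:**
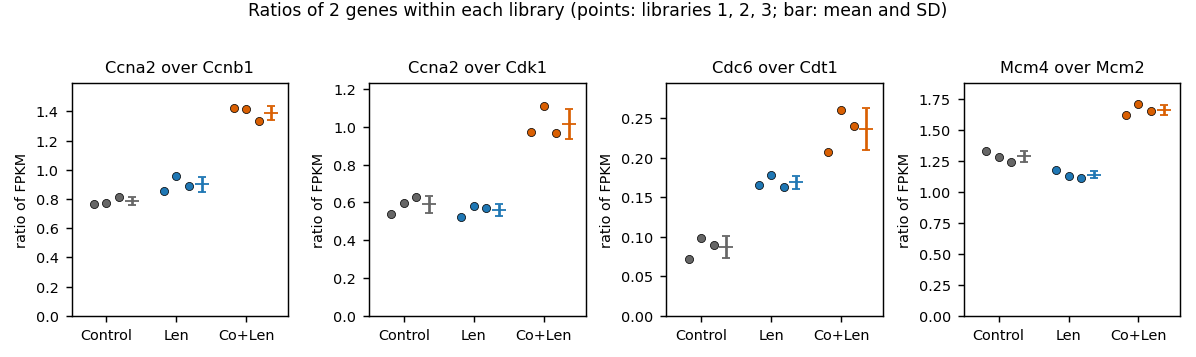
Ratio of the FPKM of 2 genes within each library (points, libraries 1, 2 and 3 from left to right) with the group mean and SD, Len and Co+Len standing for the 2 treated groups. Ccna2 over Ccnb1, Ccna2 over Cdk1 and Mcm4 over Mcm2 set Co+Len apart from both other groups, and Cdc6 over Cdt1 orders the 3 groups without overlap.

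The kinases and checkpoint genes of mitosis were above Control by their means, with a median log2 fold change of 0.33 in Co+Len@OVA+anti-PD1 and 0.22 in Lenvatinib+anti-PD1, where the licensing and firing genes had 0.53 and 0.40. Birc5 (survivin), the subunit that brings Aurora B to the centromere, rose in both groups, from 9.12, 7.26 and 7.85 FPKM in Control to 11.4, 10.7 and 11.6 in Lenvatinib+anti-PD1 (0.46, adjusted p = 0.0400) and 9.44, 13.7 and 11.3 in Co+Len@OVA+anti-PD1 (0.47, adjusted p = 0.0287). Plk1, the Polo kinase, was 21.7, 22.2 and 23.5 FPKM in Control, 32.4, 28.8 and 32.2 in Lenvatinib+anti-PD1 and 23.5, 36.4 and 28.3 in Co+Len@OVA+anti-PD1. It rose in Lenvatinib+anti-PD1 (0.46, adjusted p = 0.0466) as did Aurka (0.37, adjusted p = 0.0482). In Co+Len@OVA+anti-PD1 Plk1 had 0.36 (adjusted p = 0.0811), and its library 2 was far above library 1, at 36.4 and 23.5 FPKM.

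Aurkb, the kinase of the chromosomal passenger complex, was 15.8, 12.4 and 14.1 FPKM in Control, 15.2, 14.6 and 16.0 in Lenvatinib+anti-PD1 and 13.7, 21.0 and 17.4 in Co+Len@OVA+anti-PD1, with overlapping groups and no call. The checkpoint kinases Bub1, Bub1b and Ttk passed no test either, with log2 fold changes of 0.21 to 0.38 in Co+Len@OVA+anti-PD1 and 0.12 to 0.22 in Lenvatinib+anti-PD1. None of the calls in this role was stable. Birc5, Plk1 and Aurka in Lenvatinib+anti-PD1 lost theirs without any 1 of 6 or more libraries, with adjusted p of up to 0.137 for Plk1 without library 3 of that group. Without library 1 of Co+Len@OVA+anti-PD1, Plk1, Aurka and Aurkb passed in that group against Control (adjusted p = 0.0180, 0.0201 and 0.0379), while Birc5 was lost without its library 2 (0.0620) or 3 (0.0790) or Control library 2 (0.0650) or 3 (0.0784).

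At the kinetochore, which links chromosomes to spindle microtubules, Nuf2 changed most. It was 1.77, 2.25 and 2.09 FPKM in Control, 3.77, 3.13 and 3.50 in Lenvatinib+anti-PD1 (0.65, SE 0.15, adjusted p = 0.0173) and 3.25, 4.97 and 3.89 in Co+Len@OVA+anti-PD1 (0.83, SE 0.15, adjusted p = 0.00509). Ndc80, its partner in the same complex, was 2.79, 2.24 and 2.46 FPKM in Control, 3.39, 3.08 and 3.68 in Lenvatinib+anti-PD1 and 3.10, 4.18 and 3.66 in Co+Len@OVA+anti-PD1. It rose in Co+Len@OVA+anti-PD1 (0.46, adjusted p = 0.0230), and gave 0.38 in Lenvatinib+anti-PD1 (adjusted p = 0.0601). Cenpf rose in Co+Len@OVA+anti-PD1 as well (0.38, adjusted p = 0.0315).

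Cenpe, a kinetochore motor, had the pattern of Cdk1. It was 3.73, 3.70 and 3.82 FPKM in Control, 5.04, 4.40 and 5.20 in Lenvatinib+anti-PD1 and 3.65, 4.00 and 4.18 in Co+Len@OVA+anti-PD1. It rose in Lenvatinib+anti-PD1 (0.34, adjusted p = 0.0235), and was lower in Co+Len@OVA+anti-PD1 than there (-0.27, adjusted p = 0.0424). The lower level was lost without any 1 of 6 libraries (adjusted p from 0.0702 to 0.143). The calls of Ndc80 and Cenpf in Co+Len@OVA+anti-PD1 were lost without its library 2 or 3 or Control library 2 or 3 (0.0509 to 0.0886). The rises of Nuf2 and Cenpe in Lenvatinib+anti-PD1 were lost without its library 1 or 3 or Control library 3, and that of Cenpe without Control library 2 too (0.0508 to 0.0965).

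Of the spindle and cytokinesis genes 3 of 6 rose, in 1 comparison. The kinesin Kif11, which pushes spindle poles apart, was 7.39, 6.75 and 7.24 FPKM in Control, 8.43, 7.99 and 8.59 in Lenvatinib+anti-PD1 and 7.88, 11.7 and 9.54 in Co+Len@OVA+anti-PD1, and rose in the last group (0.40, adjusted p = 0.0392). Prc1, a bundler of midzone microtubules, and Nusap1 rose there too (0.48 and 0.39, adjusted p = 0.0160 and 0.0372). Kif20a, Kif23 and Tpx2 passed no test, and 0 of the 6 passed in Lenvatinib+anti-PD1. The calls of Kif11 and Nusap1 were lost without any 1 of 7 or more libraries (adjusted p of up to 0.101 for Kif11 without Co+Len@OVA+anti-PD1 library 3), and that of Prc1 without that library (0.0559).

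The 2 genes of the anaphase-promoting complex passed no test. Cdc20, the activator that starts anaphase, was 37.7, 27.1 and 31.1 FPKM in Control, 33.9, 30.2 and 35.3 in Lenvatinib+anti-PD1 and 24.4, 37.7 and 29.6 in Co+Len@OVA+anti-PD1, and each pair of groups overlapped. Its log2 fold change in Co+Len@OVA+anti-PD1 against Control was -0.074 with an interval of -0.46 to 0.32. Ube2c, the ubiquitin-conjugating enzyme of the complex, had 0.38 in Lenvatinib+anti-PD1 (adjusted p = 0.0588) and 0.32 in Co+Len@OVA+anti-PD1 (adjusted p = 0.0799).

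The common markers of proliferation rose in both groups. Mki67, the gene of the Ki-67 antigen, was 15.4, 14.5 and 15.3 FPKM in Control, 20.8, 20.003 and 20.4 in Lenvatinib+anti-PD1 (0.42, SE 0.12, adjusted p = 0.0323) and 17.6, 25.4 and 20.9 in Co+Len@OVA+anti-PD1 (0.47, SE 0.12, adjusted p = 0.0176). Top2a, the topoisomerase that untangles replicated DNA, was 20.4, 19.6 and 20.5 FPKM in Control, 27.1, 26.0 and 28.3 in Lenvatinib+anti-PD1 (0.42, adjusted p = 0.0147) and 27.5, 35.9 and 30.4 in Co+Len@OVA+anti-PD1 (0.61, adjusted p = 0.00250). Every treated library was above every Control library for both genes. Between the treatments Mki67 differed by 0.045 (interval -0.22 to 0.31) and Top2a by 0.19 (interval -0.018 to 0.41), neither past the test. The calls of Mki67 were lost under median-of-ratios scaling (adjusted p = 0.107 and 0.0811) and without library 3 of Co+Len@OVA+anti-PD1 (0.0551 and 0.0578), and in Lenvatinib+anti-PD1 without any 1 of its libraries or Control library 2 or 3 (0.0755 to 0.0934). Top2a lost its call in Lenvatinib+anti-PD1 without library 3 of that group (0.0610).

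Within Co+Len@OVA+anti-PD1 the members varied together, and in Control less so, where library 1 was the highest for 22 of the 44 and the lowest for 16. In Co+Len@OVA+anti-PD1, library 2 was the highest of the 3 for 41 of the 44 genes and library 1 the lowest for 43, with library 3 between them for 42. Library 2 exceeded library 1 by a median of 0.41 on the log2 scale, where all tested genes had a median of -0.016. The median coefficient of variation of the members was 15.1% in that group, 4.97% in Lenvatinib+anti-PD1 and 7.03% in Control, where all tested genes had 9.96%, 7.26% and 14.7%. The group with the most rises was also the one in which these genes were least even. In Lenvatinib+anti-PD1, library 2 was the lowest for 38 of the 44, by a median of 0.10 below library 1. That library carried most of the striated muscle RNA of the series, with 13 muscle genes summing to 4976 FPKM there, 35.3 in library 1 and 1967 in library 3, against 1.48 to 46.3 in Control. Of these 13 genes 9 were higher in Lenvatinib+anti-PD1 than in Control (69.2%, background 13.8%, median log2 fold change 5.21). There 2 of 6 tested adipocyte genes were higher too (33.3%). The part of these tissues in the results of that group was not tested.

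Other cell types differed between the groups, and their part in the results was not tested. The 12 T cell markers summed to 360, 243 and 294 FPKM in the Co+Len@OVA+anti-PD1 libraries, 104 to 111 in Lenvatinib+anti-PD1 and 31.2 to 127 in Control. Of these markers 10 of 12 were higher in Co+Len@OVA+anti-PD1 than in Control (83.3%, background 20.9%) and 0 of 12 in Lenvatinib+anti-PD1 (background 13.8%). Within Co+Len@OVA+anti-PD1 that sum was highest in library 1, where the cell cycle genes were lowest. The 9 erythroid genes, mostly through the 4 globin genes, summed to 2070 to 3005 FPKM in Co+Len@OVA+anti-PD1, 191 to 446 in Lenvatinib+anti-PD1 and 311 to 619 in Control. In the first of these, 5 of 7 tested were higher (71.4%, background 20.9%) and 2 lower (28.6%, background 12.7%) than in Control. The 5 were the 4 globin genes and Alas2 of haem synthesis, and the 2 were Tfrc and Epor, receptors for transferrin and erythropoietin. Klf1, of the same list, was too low to be tested. It gave 0.0922, 0.190 and 0.160 FPKM in Co+Len@OVA+anti-PD1, 0.502, 0.190 and 0.184 in Lenvatinib+anti-PD1 and 0.324, 0.656 and 0.486 in Control. Within Co+Len@OVA+anti-PD1 the erythroid sum was highest in library 2, as the cell cycle genes were. The mature hepatocyte sum (991, 1323 and 1191 FPKM) and the B cell sum (4.06, 14.7 and 9.29 FPKM) had the same order there. So had the striated muscle sum (42.0, 50.7 and 49.6 FPKM), while the sums of all other marker lists were highest in library 1.

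Markers of liver cells were lower in Co+Len@OVA+anti-PD1. The 20 genes of mature hepatocytes, cells that rarely divide, summed to 991 to 1323 FPKM in Co+Len@OVA+anti-PD1, 5153 to 5463 in Lenvatinib+anti-PD1 and 3287 to 7697 in Control. All 20 were lower in Co+Len@OVA+anti-PD1 than in Control (background 12.7%), while in Lenvatinib+anti-PD1 3 were higher (15%, background 13.8%) and 1 lower (5%, background 9.87%). The 7 hepatoma genes summed to 441 to 503, 725 to 764 and 712 to 812 FPKM, with 4 of 7 lower in Co+Len@OVA+anti-PD1 than in Control (57.1%, background 12.7%). The 9 macrophage genes gave 1008 to 1208, 311 to 344 and 247 to 1064 FPKM, with 1 of 9 higher in Co+Len@OVA+anti-PD1 than in Control (11.1%, background 20.9%). The 7 B cell genes gave 4.06 to 14.7, 1.85 to 2.22 and 2.07 to 4.22 FPKM, with Ms4a1 at 0 in at least 1 library and 0 of 3 tested passing in Co+Len@OVA+anti-PD1 against Control. In that comparison 2 of 4 tested germinal centre genes (50%), 2 of 6 adipocyte genes (33.3%), 1 of 8 fibroblast genes (12.5%) and 0 of 6 endothelial genes were higher. The background was 20.9% higher and 12.7% lower, and the macrophage, B cell, fibroblast and endothelial shares of higher genes lie under it. The germinal centre, adipocyte, fibroblast and endothelial lists had 0 lower members.

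Other genes of the same processes were counted from lists taken from textbook knowledge of the cell cycle. Of 48 further replication genes, 25 rose and 0 fell in Co+Len@OVA+anti-PD1 against Control (52.1% higher, background 20.9%, median log2 fold change 0.39), and 16 rose and 1 fell in Lenvatinib+anti-PD1 (33.3%, background 13.8%, median 0.28). Of 62 further mitosis genes, 20 rose and 0 fell in Co+Len@OVA+anti-PD1 (32.3%, median 0.26). In Lenvatinib+anti-PD1 7 of the 62 rose and 0 fell (median 0.18), and this share of 11.3% lies under the background of 13.8%. Of 28 further regulators, 12 rose and 1 fell in Co+Len@OVA+anti-PD1 (42.9%, median 0.32), and 6 rose and 2 fell in Lenvatinib+anti-PD1 (21.4%, median 0.22). Between the treatments the 3 lists had 4, 6 and 4 genes higher (8.33%, 9.68% and 14.3%, background 17.3%) and 2, 2 and 1 lower (4.17%, 3.23% and 3.57%, background 12%), so all these shares lie under the background.

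These list counts also depended on the settings. Under median-of-ratios scaling the rises in Co+Len@OVA+anti-PD1 were 14, 9 and 6, and those in Lenvatinib+anti-PD1 12, 3 and 5. Over all alternatives other than libraries 1 and 2 alone, the rises ranged from 14 to 32, 9 to 28 and 4 to 14 in Co+Len@OVA+anti-PD1, and from 7 to 18, 2 to 12 and 2 to 7 in Lenvatinib+anti-PD1. Between the treatments the higher genes numbered 1 to 6, 2 to 13 and 2 to 6. From libraries 1 and 2 alone 0 of any list passed.

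Among the replication genes, Uhrf1, which brings the maintenance DNA methyltransferase to new DNA, had 14.5, 13.4 and 13.8 FPKM in Control, 25.0, 23.7 and 26.9 in Lenvatinib+anti-PD1 and 22.5, 35.2 and 29.7 in Co+Len@OVA+anti-PD1. It rose in both (0.83, adjusted p = 0.00523, and 1.02, adjusted p = 0.00185). Mcm10, which helps the helicase start, rose in both too (0.76 and 0.42, adjusted p = 0.00515 and 0.0392), but its call in Co+Len@OVA+anti-PD1 was lost under median-of-ratios scaling (0.133) and without any 1 library other than library 1 of that group (adjusted p of up to 0.117). Geminin (Gmnn), the inhibitor of Cdt1, was 14.1, 13.04 and 13.6 FPKM in Control, 17.3, 16.9 and 18.3 in Lenvatinib+anti-PD1 and 14.3, 14.4 and 14.5 in Co+Len@OVA+anti-PD1. It rose in Lenvatinib+anti-PD1 (0.35, adjusted p = 0.00335) and was lower in Co+Len@OVA+anti-PD1 than there (-0.27, adjusted p = 0.00839). Slbp, which binds histone mRNA, was higher in Co+Len@OVA+anti-PD1 than in either other group (0.62 and 0.44, adjusted p = 0.000534 and 0.00214).

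Fbxo5 (Emi1), which holds the anaphase-promoting complex inactive through S phase, was 5.29, 5.38 and 6.16 FPKM in Control, 11.5, 10.2 and 11.5 in Lenvatinib+anti-PD1 and 9.29, 10.5 and 10.6 in Co+Len@OVA+anti-PD1. It rose in both (0.92 and 0.80, adjusted p = 0.000411 and 0.000627). Smc4 of condensin and Cenpq of the kinetochore were higher in Co+Len@OVA+anti-PD1 than in Lenvatinib+anti-PD1 (0.56 and 0.43, adjusted p = 0.00413 and 0.00917). Anln (anillin), which acts at the cleavage furrow, rose in both groups and more in Co+Len@OVA+anti-PD1 (0.26 and 0.59, adjusted p = 0.0354 and 0.00102, with 0.0116 between the treatments). For Anln the rise in Lenvatinib+anti-PD1 was lost under median-of-ratios scaling and without library 3 of Co+Len@OVA+anti-PD1, library 2 or 3 of Control or any library of Lenvatinib+anti-PD1 (adjusted p of up to 0.104), and the difference between the treatments without Lenvatinib+anti-PD1 library 3 (0.0503) or under median-of-ratios scaling (0.0650). Ska2, of a complex at the outer kinetochore, rose in both (0.56 and 0.47, adjusted p = 0.00666 and 0.0105). Cenpa, the centromeric histone, passed no test (0.26 in Co+Len@OVA+anti-PD1 against Control, adjusted p = 0.110).

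Of the transcription factors upstream, Foxm1, Mybl2 and Myc passed no test, with log2 fold changes against Control of 0.12 (Myc) to 0.29 (Foxm1) in Co+Len@OVA+anti-PD1. Foxm1, an activator of mitotic genes, was 9.67, 6.88 and 8.44 FPKM in Control, 9.83, 9.10 and 9.78 in Lenvatinib+anti-PD1 and 9.17, 11.3 and 10.3 in Co+Len@OVA+anti-PD1. Mycn was a low transcript at 0.491, 0.989 and 0.997 FPKM in Control, 4.56, 4.29 and 4.89 in Lenvatinib+anti-PD1 (1.96, adjusted p = 0.000791) and 2.80, 1.54 and 2.14 in Co+Len@OVA+anti-PD1 (1.00, adjusted p = 0.0101). The 3 groups did not overlap, and it was lower in Co+Len@OVA+anti-PD1 than in Lenvatinib+anti-PD1 (-0.96, adjusted p = 0.0132, and 0.0524 without Lenvatinib+anti-PD1 library 3).

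Cyclin D3 (Ccnd3), common in lymphoid and blood cells, was higher in Co+Len@OVA+anti-PD1 than in either other group (0.61 and 0.48, adjusted p = 0.00192 and 0.00549). Cdk4, the kinase of the D cyclins, was 97.1, 94.4 and 94.8 FPKM in Control, 136, 122 and 138 in Lenvatinib+anti-PD1 and 95.1, 126 and 111 in Co+Len@OVA+anti-PD1. Its rise in Lenvatinib+anti-PD1 passed (0.47, adjusted p = 0.0147, and 0.0614 without library 3 of that group or 0.0519 without Control library 3), Co+Len@OVA+anti-PD1 against Control did not (0.20, adjusted p = 0.153), and neither did the difference between the treatments (-0.26, adjusted p = 0.0861). Chek1, the replication checkpoint kinase, rose in both (0.56 and 0.41, adjusted p = 0.00578 and 0.0151), and in Co+Len@OVA+anti-PD1 its call was lost without library 3 (0.0665) and under median-of-ratios scaling (0.0593). Chek2, the kinase activated by DNA breaks, was higher in Co+Len@OVA+anti-PD1 than in Control and in Lenvatinib+anti-PD1 (0.67 and 0.54, adjusted p = 0.00535 and 0.0138), though the second call was lost without library 3 of Co+Len@OVA+anti-PD1 (0.0503) or of Lenvatinib+anti-PD1 (0.0538). Lin54, a DNA-binding subunit of the MuvB complex, fell in Lenvatinib+anti-PD1 (-0.46, adjusted p = 0.0139).

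Among brakes of the cell cycle, calls went in both directions. Of 21 listed, 7 rose (33.3%, background 20.9%) and 3 fell (14.3%, background 12.7%) in Co+Len@OVA+anti-PD1 against Control. In Lenvatinib+anti-PD1 3 rose (14.3%, background 13.8%) and 4 fell (19%, background 9.87%), and between the treatments 5 were higher (23.8%, background 17.3%) and 2 lower (9.52%, background 12%). Median-of-ratios scaling turned the balance in Co+Len@OVA+anti-PD1 against Control to 2 higher and 4 lower, and between the treatments to 4 higher and 5 lower. Cdkn1a (p21), the Cdk inhibitor induced by p53, fell in both groups, from 103, 87.5 and 91.2 FPKM in Control to 55.8, 53.8 and 56.3 in Lenvatinib+anti-PD1 (-0.76, SE 0.13, adjusted p = 0.00467) and 47.8, 68.8 and 57.6 in Co+Len@OVA+anti-PD1 (-0.70, SE 0.13, adjusted p = 0.00496). All treated libraries were below all Control libraries. Cdkn1b (p27), another Cdk inhibitor, was 12.7, 14.1 and 12.5 FPKM in Control, 8.54, 9.22 and 9.04 in Lenvatinib+anti-PD1 and 14.3, 10.2 and 12.3 in Co+Len@OVA+anti-PD1. It fell in Lenvatinib+anti-PD1 (-0.53, adjusted p = 0.0133), and was higher in Co+Len@OVA+anti-PD1 than there (0.42, adjusted p = 0.0265). The second of these calls was lost without library 1 or 3 of Co+Len@OVA+anti-PD1 or any 1 library of Lenvatinib+anti-PD1 (adjusted p of up to 0.0835) and under median-of-ratios scaling (0.0523).

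Among the INK4 inhibitors of Cdk4 and Cdk6, Cdkn2c and Cdkn2b differed by treatment. Cdkn2a is given further below, and the family is not covered in full. Cdkn2c (p18) was 4.14, 4.18 and 4.40 FPKM in Control, 4.81, 5.94 and 4.70 in Lenvatinib+anti-PD1 and 9.10, 12.2 and 10.6 in Co+Len@OVA+anti-PD1. It rose in Co+Len@OVA+anti-PD1 (1.23, SE 0.12, adjusted p = 0.000423) and was above Lenvatinib+anti-PD1 there (0.98, adjusted p = 0.000850). Cdkn2b (p15) was 24.6, 26.2 and 26.1 FPKM in Control, 42.0, 38.1 and 42.6 in Lenvatinib+anti-PD1 and 27.3, 29.8 and 28.3 in Co+Len@OVA+anti-PD1, and rose in Lenvatinib+anti-PD1 (0.66, SE 0.064, adjusted p = 0.000453). Between the treatments Cdkn2b was lower in Co+Len@OVA+anti-PD1 (-0.51, adjusted p = 0.000892), the opposite of Cdkn2c. Btg1, an antiproliferative gene of lymphocytes and other cells, fell in Lenvatinib+anti-PD1 (-0.50, adjusted p = 0.00219). Cdkn2a, which encodes p16 and p19Arf, gave 11.9, 9.71 and 10.9 FPKM in Control, 13.9, 10.9 and 13.8 in Lenvatinib+anti-PD1 and 12.5, 18.3 and 14.9 in Co+Len@OVA+anti-PD1, and rose in the last group just under the threshold (0.46, adjusted p = 0.0496), a call lost under median-of-ratios scaling (0.211) and without any 1 library (adjusted p of up to 0.124) other than library 1 of Co+Len@OVA+anti-PD1 or library 2 of Lenvatinib+anti-PD1. Rbl1 (p107), a relative of the retinoblastoma protein, rose in both groups (0.35 and 0.55, adjusted p = 0.0206 and 0.00264), in Lenvatinib+anti-PD1 not without its library 1 (0.0510) or 3 (0.0837) or Control library 3 (0.0599).

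**Figure D5:**
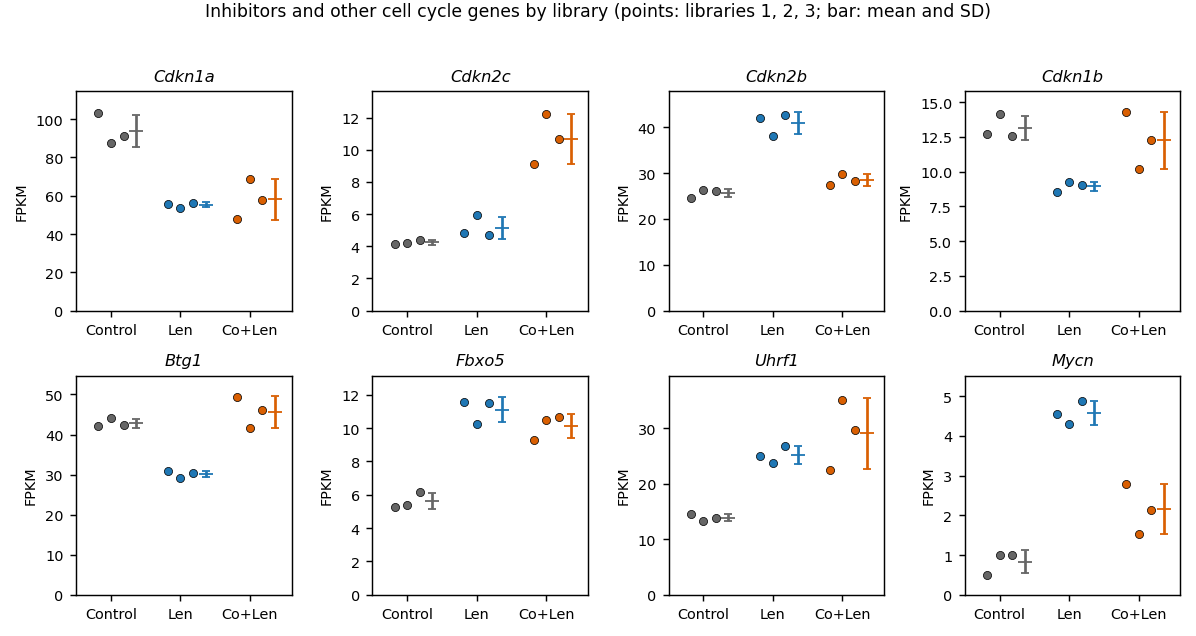
FPKM of 8 inhibitors and other cell cycle genes in each library (points, libraries 1, 2 and 3 from left to right) with the group mean and SD, Len and Co+Len standing for the 2 treated groups and each axis starting at 0. Cdkn1a is lower and Fbxo5, Uhrf1 and Mycn are higher in both treated groups than in Control, Cdkn2c is highest in Co+Len, and Cdkn2b is highest in Len.

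Most mRNAs of the histones made in S phase have no poly(A) tail, and the libraries were made from poly(A) RNA. Of 46 listed, 43 were found and 11 reached a mean of 0.5 FPKM. In Co+Len@OVA+anti-PD1 1 of these rose (9.09%, background 20.9%) and 1 fell (9.09%, background 12.7%) against Control, so both shares lie under the background. Lenvatinib+anti-PD1 had 0 that rose (background 13.8%) and 4 that fell (36.4%, background 9.87%). Between the treatments 4 were higher (36.4%, background 17.3%) and 0 lower (background 12%). Over the alternatives other than libraries 1 and 2 alone, the 1 rise was 0 to 2, the 4 falls were 1 to 5 and the 4 higher between the treatments were 2 to 7. H1f2 fell in both, from 80.4, 50.7 and 62.1 FPKM in Control to 25.0, 33.1 and 28.6 in Lenvatinib+anti-PD1 (-1.12, adjusted p = 0.00716) and 32.1, 20.7 and 27.3 in Co+Len@OVA+anti-PD1 (-1.25, adjusted p = 0.00369). H2bc11 was higher in Co+Len@OVA+anti-PD1 than in Lenvatinib+anti-PD1, at 2.84, 4.34 and 3.83 against 1.13, 0.955 and 0.626 FPKM (1.57, adjusted p = 0.00406). H2bc12 had the same direction (1.504, adjusted p = 0.00842), and H2bc4 was the histone gene that rose in Co+Len@OVA+anti-PD1 against Control (0.80, adjusted p = 0.0331), which was lost under median-of-ratios scaling (0.0921) and without library 2 or 3 of Co+Len@OVA+anti-PD1, library 2 or 3 of Control or library 3 of Lenvatinib+anti-PD1 (adjusted p of up to 0.0916). Several of these genes are near-identical copies, so fragments may have been shared out among them.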

How the data were processed

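RNA of 9 bulk tumours was sequenced as poly(A)-selected, strand-marked libraries with paired reads of 150 bases, per the labels' protocols. The authors deposited 1 table of FPKM values, per the file headers, for 32761 genes. Tools named in the submitters' processing notes, with no version, are StringTie, fastp and edgeR. An aligner, a build or an annotation is not given in the sources used here. The file's name speaks of counts, but its values are FPKM, and whole fragments could not be recovered from them, so read depth is unknown, no count test was run and no interval from counts is given.

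Values were tested as log2(FPKM + 0.5) with limma 3.58.1 (R 4.3.3; empirical Bayes with trend and robust fitting, 6 residual degrees of freedom) on the 15353 genes whose mean reached 0.5 FPKM, all 9 libraries in 1 fit with group as the only term. P-values were adjusted by the Benjamini-Hochberg method over all 15353 genes, and a gene passed at an adjusted p under 0.05. All adjusted p-values in the text come from limma. The script was tested on simulated data. P-values measure the spread between these libraries, which may be technical. SDs are over 3 libraries.

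The members and lists were chosen with earlier results of these data known. Named were 24 members set by name, those with the 3 highest and 3 lowest log2 fold changes in each comparison, the 2 genes with the smallest p of each related list, and 9 regulators (Cdkn1a, Cdkn1b, Cdkn2a, Ccnd3, Cdk4, Foxm1, Mybl2, Myc and Cenpa). Mcm4 and the promoters shown were picked after their values were seen. Related lists hold other replication genes, other mitosis genes, regulators, brakes and S phase histones, and marker lists hold T cell, B cell, germinal centre, erythroid, macrophage, hepatocyte, hepatoma, endothelial, fibroblast, striated muscle and adipocyte genes. Alternatives were other pseudocounts (0.1 and 1 FPKM), no filter or a filter of 2 FPKM, other scalings, rescaling without mitochondrial genes, a fit of 2 groups, a plain variance model, the replicate number as a block, libraries 1 and 2 alone, and each library left out.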

Additional observations from a re-analysis of the deposited data

How the results depend on the processing

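The counts of members passing the test depended on the scaling and on single libraries, while the members called in the tests on all 9 libraries kept their sign. Of the 24 rises in Co+Len@OVA+anti-PD1 tumours, median-of-ratios scaling left 13, and tests without 1 library gave 15 to 33. For Lenvatinib+anti-PD1 against Control (18 rises) median-of-ratios scaling gave 9, no filter on low values 11, and leaving out 1 library 5 to 25. Between the treatments the 4 members higher in Co+Len@OVA+anti-PD1 became 1 under median-of-ratios scaling and 2 to 8 without 1 library, and the 2 lower became 1 with no filter and 1 to 3 without 1 library. Libraries 1 and 2 alone gave 0 in each of these 4 counts. No member was called lower than Control under any alternative. Same-numbered libraries of different groups did not deviate together (correlations of -0.25 to 0.079). These correlations cannot exclude a pairing, because deviations from a mean of 3 libraries depend on each other. With the replicate block the 24 rises became 18, the 18 became 11, the 4 became 3 and the 2 became 1. Over the 44 members, 3 comparisons and all alternatives, 2350 of 2640 values stayed on their side of the threshold (47 of them, none of which passed in either test, with the other sign), 239 no longer passed and 51 newly passed. For the 30 named genes of the related lists 1653 of 1797 values stayed on their side (27 with the other sign), 135 no longer passed and 9 newly passed. No value that passed in either setting changed sign. With no read depth, counting error of low genes such as Ccnd2 and Mycn is unknown.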
